A study of Mus musculus with 6 samples.

Results

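Integrins are the receptors by which cells hold on to the matrix around them. Each is a pair of an alpha and a beta chain, and the pairing decides whether it binds collagen, laminin, fibronectin or a partner on another cell. Inside the cell, talin and kindlin proteins bind the beta tail, and vinculin, tensins, paxillin, focal adhesion kinase and the complex of integrin-linked kinase with PINCH and parvin join the receptor to actin at focal adhesions. In marrow stroma such contacts anchor the stromal cell to matrix, and integrins of blood cell precursors bind ligands on it.

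The 44 genes described here are 27 integrin chains (18 alpha and 9 beta) and 17 focal adhesion proteins, out of 22296 genes with a single symbol in the array annotation. They were chosen by symbol and by a list of names. That rule uses no measured value, but it was set with earlier results of these data known. The data come from OP9, a mouse marrow stromal cell line, grown below confluence and measured on Affymetrix exon arrays. One stable line carried a lentiviral pLKO.1-Puro vector with a scrambled hairpin (control shRNA), and the other the same kind of vector with a hairpin against Smoothened (Smo shRNA), the receptor-like protein that Hedgehog signalling needs. RNA of each line was isolated in triplicate, so 3 control shRNA and 3 Smo shRNA arrays were compared. The submitters made the Smo shRNA line to obtain stroma lacking Hedgehog signalling; the activity of the pathway itself was not examined here. Each condition is 1 line, so a difference between the lines that does not come from the hairpin cannot be told apart from its effect. The labels do not state whether each RNA sample had a culture of its own, so p-values measure a spread that may be technical.

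Gene values are log2 intensities joined from the exon probe sets of a gene, and differences are Smo shRNA minus control shRNA. Levels of different genes cannot be compared, because probes differ in brightness. A gene was called when its adjusted p, from limma over all 16923 genes tested, was below 0.05. Smo itself read 12.29, 12.22 and 12.24 in the control arrays and 11.32, 11.36 and 11.44 in the Smo shRNA arrays, 1.83-fold lower (-0.88, SE 0.04, adjusted p = 1.22e-09). Of 14 markers of mesenchymal stromal cells, 9 were called lower and 0 higher, beside 17.4% lower and 21.2% higher of all genes. Unlike the calls, marker levels were joined from all probe sets of a gene, dim ones included. The mean levels of these 14 over all arrays ran from 5.34 (Lepr) to 13.94 (Vim), with a median of 11.61. Those of 13 leukocyte markers ran from 4.85 (Ptprc) to 8.78 (Cd68), with a median of 7.13. No marker was listed at 0, and probes differ in brightness, so these levels do not show that a cell type was absent.

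All 44 members had enough probe sets to be tested, with 1090 of their 1343 annotated probe sets bright enough to be used. In Smo shRNA cells 13 members fell, 7 rose and 24 were not called. That is 45.5% of members called, beside 38.6% of all genes, and 29.5% of members lower beside 17.4% of all genes. The 7 that rose are 15.9% of members, beside 21.2% of all genes. With each array centred on its median, 16 members were lower and 4 higher, while all genes moved to 3610 lower and 3136 higher from 2943 lower and 3594 higher. Without any 1 of the 3 Smo shRNA arrays, 4 members were higher and 11 lower, and of all genes 2672 to 2773 were higher and 2212 to 2480 lower. Among calls with a difference of 0.32 or more on the log2 scale were 12 members (27.3%, beside 17.9% of all genes). Of these, 8 were lower, beside 8.22% of all genes, and 4 were higher, beside 9.64%. The median difference of the members (-0.03) lay close to that of all genes tested (0.01). Without regard to sign, the median size of the difference was 0.1 for members and 0.11 for all genes. Most members thus moved little, much as all genes did, and a few moved far. The arrays of the 2 lines did not overlap for 27 members (61.4%), beside 47.8% of all genes.

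**Figure D1:**
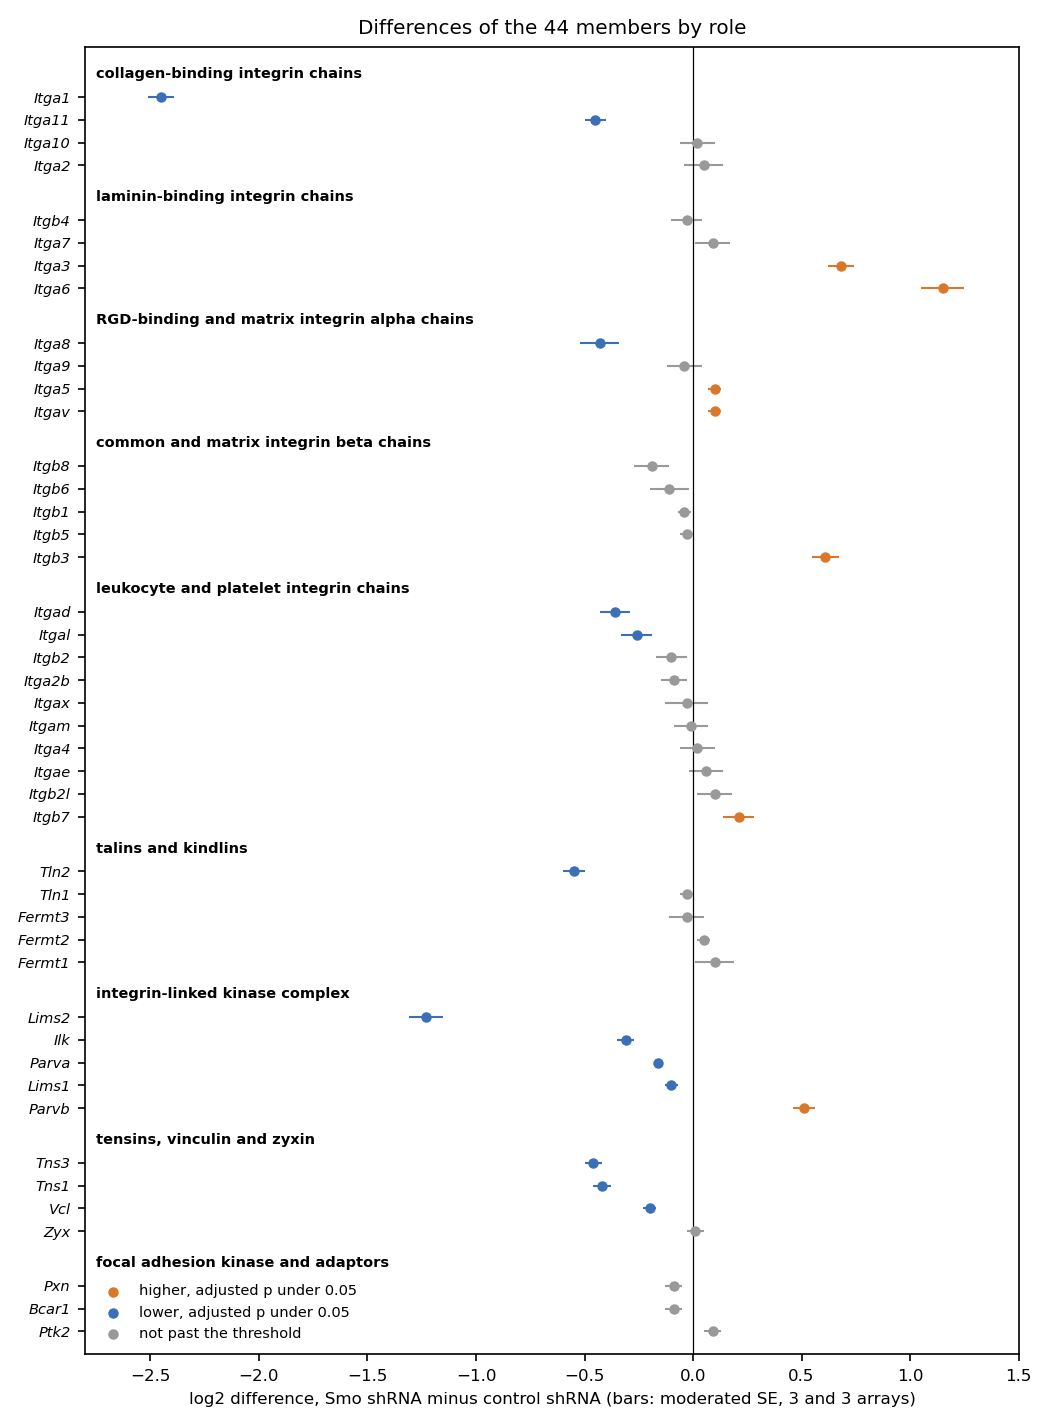
Log2 differences (x axis, Smo shRNA minus control shRNA) of the 44 members, grouped by role, with moderated SE from 3 and 3 arrays; colour gives the call at adjusted p below 0.05. Itga1 (-2.45) and Lims2 (-1.23) lie farthest to the lower side and Itga6 (1.15) farthest to the higher side, and most other members lie close to 0.

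Among the collagen-binding alpha chains, Itga1 and Itga11 fell while Itga2 and Itga10 were not called. Itga1, whose pair with Itgb1 binds collagen IV and other collagens, read 11.17, 11.14 and 11.26 in control arrays and 8.73, 8.65 and 8.83 in Smo shRNA arrays. The arrays of the lines lay far apart, and the difference was -2.45 (5.48-fold, SE 0.06, adjusted p = 4.92e-12). All 39 Itga1 probe sets were lower and 38 of them were called on their own, beside 30.0% of all probe sets used. Their differences ran from -3.41 to -0.73. The gene Pelo, which overlaps Itga1 in the mouse genome, was not called (-0.11, adjusted p = 0.311).

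Itga11, the fibroblast receptor chain for fibrillar collagen, read 11.10, 11.03 and 11.17 in control arrays against 10.61, 10.63 and 10.72. It was 1.36-fold lower (-0.45, SE 0.05, adjusted p = 6.73e-06), and all 31 of its probe sets were lower, 27 of them called. The groups did not overlap. Itga2, which lies on chromosome 13 like Itga1, had 6 usable probe sets of 27 and a difference of 0.05 (SE 0.09, adjusted p = 0.704). Itga10, known from cartilage, differed by 0.02 (adjusted p = 0.904). The log ratio of Itga1 to Itga11 changed by -2.01 between the lines (SD 0.01 and 0.06, n = 3 each), and that of Itga1 to Itga2 by -2.51 (SD 0.18 and 0.11). For both, the exact permutation p was 0.1, the smallest that 3 against 3 arrays allow (0.111 adjusted over the 10 ratios of related members compared). Each of those ratios has a called member as its first gene, so this p adds no support to the calls.

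The 250 bases before the Itga1 start are shown because Itga1 changed most of all members. They are printed beside those of Vcl, which is described further down and was the called member whose window held matches to the motifs searched. Both are from the RefSeq promoter table (GRCm38.p6), read 5′ to 3′ on the gene's strand, at chr13:115101965-115102214 (minus strand) for Itga1 and chr14:20929148-20929397 (plus strand) for Vcl. Capitals mark motif matches.
Itga1: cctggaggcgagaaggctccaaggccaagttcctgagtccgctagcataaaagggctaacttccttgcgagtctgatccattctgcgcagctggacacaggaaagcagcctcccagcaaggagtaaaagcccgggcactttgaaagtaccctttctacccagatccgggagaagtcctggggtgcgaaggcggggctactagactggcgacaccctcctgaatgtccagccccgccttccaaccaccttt
Vcl: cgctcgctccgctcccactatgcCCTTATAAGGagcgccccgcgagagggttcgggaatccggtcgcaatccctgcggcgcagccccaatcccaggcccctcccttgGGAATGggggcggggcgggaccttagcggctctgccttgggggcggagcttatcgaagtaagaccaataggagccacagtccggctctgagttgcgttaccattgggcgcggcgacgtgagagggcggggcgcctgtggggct

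Of the 44 members, 31 were found in that table, with 37 windows. The CArG box, the site known for serum response factor, was in the windows of Vcl, Fermt2 and Itgb6, or 9.68% of the members found beside 1.62% of all 27025 genes. Of these 3, Vcl was called. The letters GGAATG, the core known for TEAD factors, were in those of Vcl, Itga10 and Itgb1, also 9.68% beside 14.4% of all genes. The letters GACCACCCA, known as the site of the GLI factors of Hedgehog signalling, were in the windows of 0 of the 31 members, beside 0.255% of all genes. Both strands were searched and the motifs do not overlap each other in the Vcl window. These are letter matches only.

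Of the 4 laminin-binding chains, Itga3 and Itga6 rose, and Itga7 and Itgb4 were not called. Itga3 read 9.85, 9.70 and 9.85 in control arrays and 10.42, 10.52 and 10.50 in Smo shRNA arrays. Every Smo shRNA array was higher, by 1.60-fold in the mean (0.68, SE 0.06, adjusted p = 5.41e-07), and 30 of 33 probe sets were called, all of them higher.

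Itga6 read 7.18, 7.10 and 6.97 against 8.02, 8.37 and 8.32, a 2.22-fold rise (1.15, SE 0.10, adjusted p = 5.45e-07) from a level near the median of all probe sets. Its 27 usable probe sets disagreed. Of the 17 dimmer ones, with a mean below 8.22, 15 were called higher, and their median difference was 1.89. Of the 10 brighter ones 1 was called, and their median difference was 0.11. The 16 called probe sets rose by 0.94 to 3.76. For 9 of the 27, the control mean lay below the brightness cut, so they entered through the Smo shRNA arrays. With no brightness cut the difference was 1.21, and with the stricter cut, which keeps the brighter probe sets, it was 0.15 (adjusted p = 0.124) and not called.

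Itgb4, the beta chain that pairs with Itga6 in epithelia, was not called (-0.03, SE 0.07, adjusted p = 0.797), and 0 of its 41 probe sets were called. Itga7, a chain best known from muscle, differed by 0.09 (adjusted p = 0.444). Of 7 tested epithelial markers 0 were called, beside 38.6% of all genes and 10.3% of genes with a mean level below 8.22. The summed level of the 8 with a value ran from 10.47 to 10.53 in control arrays and from 10.43 to 10.62 in Smo shRNA arrays. The log ratio of Itga6 to Itgb4 changed by 1.18 (SD 0.10 and 0.22, n = 3 each, exact permutation p = 0.1), and that of Itga3 to Itga7 by 0.59 (SD 0.14 and 0.10, same p). The Itga6 ratio includes the probe sets that entered through the Smo shRNA arrays, so it has the same limit as the Itga6 difference and adds no support to it.

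**Figure D2:**
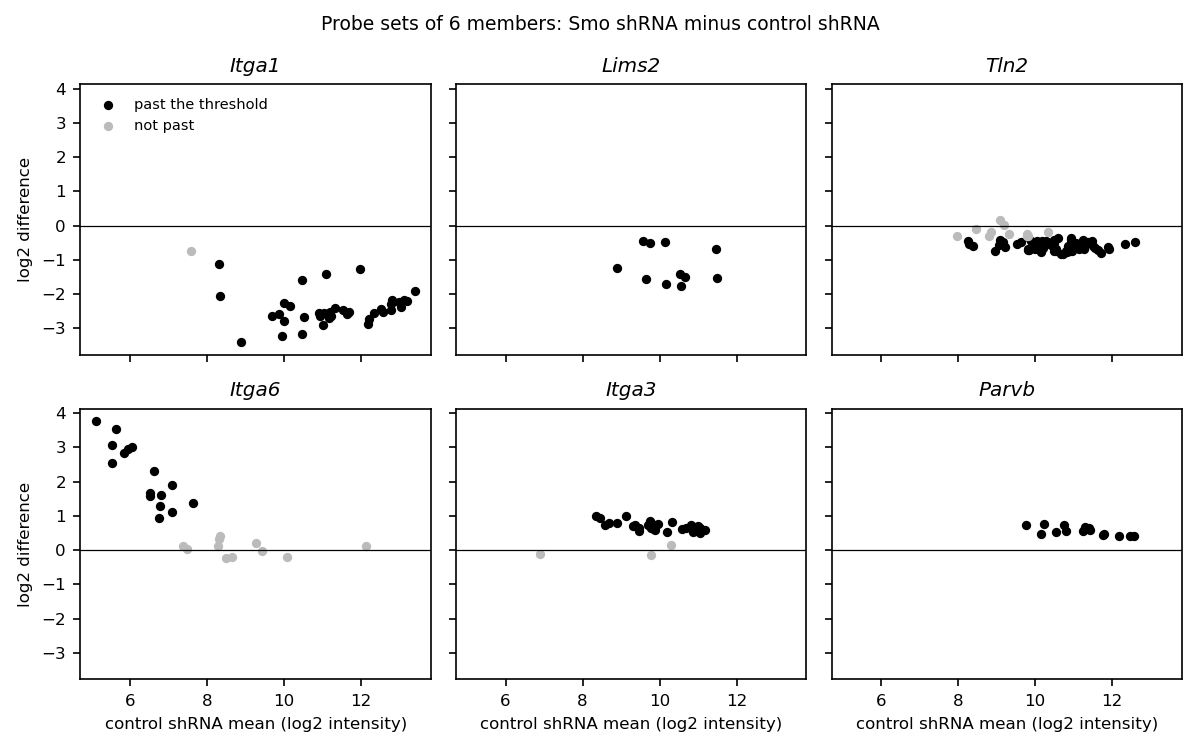
Each point is 1 probe set, with its mean in the 3 control shRNA arrays on the x axis (log2 intensity) and its log2 difference on the y axis; black points had an adjusted p below 0.05. All probe sets of Itga1 and Lims2 are lower but differ in size (-3.41 to -0.73 and -1.77 to -0.44), and all of Parvb are higher. For Tln2 all but 2 are lower, and for Itga3 all but 2 are higher. Of the 16 called Itga6 probe sets, 15 are among its dimmer ones.

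The chains that bind fibronectin, vitronectin and related proteins changed by small amounts, except Itgb3 and Itga8. Itgb3, which pairs with Itgav as a vitronectin receptor, read 9.98, 9.88 and 10.14 against 10.60, 10.61 and 10.63. The Smo shRNA arrays all lay above the control arrays, by 1.53-fold (0.61, SE 0.06, adjusted p = 2.88e-06), and 14 of 16 probe sets were called higher. Itgav itself rose by 0.10 (SE 0.03, adjusted p = 0.0294) and the fibronectin receptor chain Itga5 by 0.10 (SE 0.03, adjusted p = 0.0245). Both calls were lost with arrays centred on their medians (0.06 for each) and, singly, without any of the Smo shRNA arrays or control replicate 1. The Itgav call was also lost without control replicate 2 (0.06) or control replicate 3 (0.08), and with the mean of probe sets its difference was 0.02.

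Itga8, a receptor chain for nephronectin, read 8.35, 8.07 and 8.30 against 7.67, 7.93 and 7.82. The groups did not overlap, but the gap between the nearest arrays was narrow. The fall of 0.43 on the log2 scale (1.35-fold, SE 0.09, adjusted p = 0.00162) lost its call without control replicate 1 (-0.32, adjusted p = 0.0696) or control replicate 3 (-0.34, adjusted p = 0.0665). All 25 Itga8 probe sets were lower, 12 of them called. Its ligand gene Npnt was not called (-0.06, adjusted p = 0.669). Itga9 was not called either (-0.04, adjusted p = 0.786).

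The shared beta chain Itgb1, which pairs with all 4 collagen-binding alpha chains and with Itga3, Itga5, Itga6, Itga7, Itga8, Itga9 and Itgav, was not called. It read 12.62, 12.56 and 12.66 against 12.55, 12.57 and 12.58 (-0.04, SE 0.03, adjusted p = 0.286), and 2 of its 20 probe sets were called. Itgb5 (-0.03, SE 0.03), Itgb6 (-0.11, SE 0.09) and Itgb8 (-0.19, SE 0.08) were not called, but the Itgb8 difference passed under 3 of 14 alternatives. The log ratio of Itgb3 to Itgb1 changed by 0.66 and that of Itgb3 to Itgav by 0.52 (exact permutation p = 0.1 for each).

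The 10 chains known mainly from leukocytes and platelets were mostly dim, and 2 fell, 1 rose and 7 were not called. That is 30% called, beside 38.6% of all genes and 10.3% of genes with a mean level below 8.22. By direction it is 20% lower and 10% higher, beside 17.4% and 21.2% of all genes. Itgad, a leukocyte alpha chain, read 8.49, 8.40 and 8.29 against 7.95, 8.07 and 8.09 (1.28-fold lower, -0.36, SE 0.07, adjusted p = 0.00156), with 6 of 17 probe sets called. Without control replicate 1 its difference was -0.17 and the call was lost (adjusted p = 0.091). Itgal, the alpha chain of LFA-1, read 7.86, 7.86 and 7.84 against 7.60, 7.67 and 7.52 (-0.26, SE 0.07, adjusted p = 0.0115). That call was kept in 8 of 14 alternatives, and it was lost with the stricter brightness cut (-0.17). It was also lost when control replicate 1 (-0.17), control replicate 3 (-0.16) or any of the Smo shRNA arrays was left out. The difference fell closest to 0 when the third Smo shRNA array was left out (-0.08), and was -0.16 and -0.20 when the first or the second was. Itgb7 rose by 0.21 (SE 0.07, adjusted p = 0.0275), a call kept in 7 of 14 alternatives. Its losses included centring arrays on their medians. They also included leaving out control replicate 2 (0.18), control replicate 3 (0.12) or any of the Smo shRNA arrays (0.15 to 0.19). Of its 17 probe sets, 5 were called higher and 1 lower. For 2 of the 17, the control mean lay below the brightness cut, so they entered through the Smo shRNA arrays. Those 2 rose most (1.40 and 0.79), and the brightest probe set was the one called lower (-0.27).

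Itgb2, the partner of Itgal and Itgad, was not called (-0.10, SE 0.07, adjusted p = 0.328), nor were Itgam, Itgax, Itgae, Itga2b, Itgb2l and Itga4 (-0.09 to 0.10). Itga4 rests on 4 usable probe sets, and 58 more are annotated jointly to Itga4 and Cerkl and were not used. Of 13 tested leukocyte markers, Cd68 was higher (0.47) and Lyz2 lower (-2.49), beside 21.2% higher and 17.4% lower of all genes. The others, Ptprc and Spi1 among them, were not called (-0.09 to 0.09). The summed level of that list was 11.02 to 11.18 in control arrays and 10.88 to 10.93 in Smo shRNA arrays. Within that sum, the mean level of Lyz2 went from 8.97 to 6.60 and that of Cd68 from 8.54 to 9.01. The part of these markers in the Itgad and Itgal differences was not tested. In bulk RNA, fewer cells of a type and less RNA per cell cannot be told apart.

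**Figure D3:**
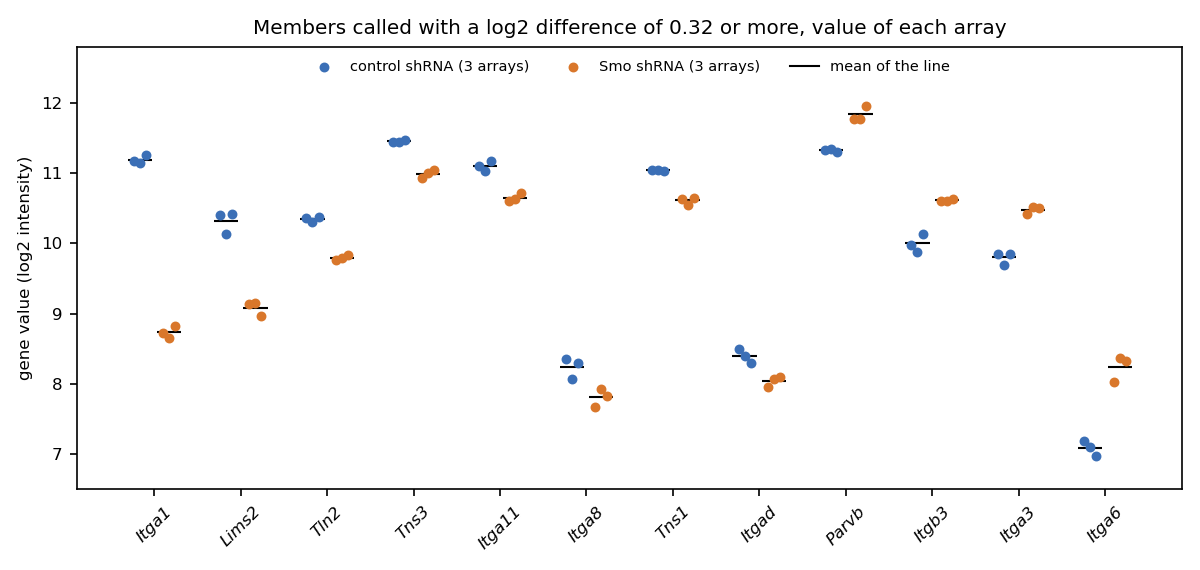
Gene values (y axis, log2 intensity) of the 12 members called with a log2 difference of 0.32 or more, with 1 point for each of 3 control shRNA and 3 Smo shRNA arrays and a line at each mean. The arrays of the lines do not overlap for any of the 12, beside 47.8% of all genes not overlapping. The choice of called members with large differences makes this likely. The gap is widest for Itga1 (11.14 or more against 8.83 or less) and narrow for Itga8 and Itgad.

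Of the proteins that bind the beta tails, Tln2 fell. Talins switch integrins to their active form and carry force to actin. Tln2 read 10.36, 10.30 and 10.37 in control arrays and 9.77, 9.79 and 9.83 in Smo shRNA arrays, with the groups well apart. It was 1.46-fold lower (-0.55, SE 0.05, adjusted p = 1.07e-06), and 64 of 75 probe sets were called, all lower. Tln1, the widely expressed talin, read 12.02 ± 0.02 in control arrays and 11.99 ± 0.01 in Smo shRNA arrays (SD, n = 3 each). The groups overlapped (-0.03, SE 0.03, adjusted p = 0.554), and 4 of 60 probe sets were called. The log ratio of Tln2 to Tln1 changed by -0.52 (SD 0.02 in each line, n = 3 each, exact permutation p = 0.1). The kindlins Fermt1 (0.10, SE 0.09), Fermt2 (0.05, SE 0.03) and Fermt3 (-0.03, SE 0.08) were not called.

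All 5 genes of the integrin-linked kinase complex were called, 4 lower and 1 higher, beside 52.3% of all genes with a mean level of 8.22 or more, as all 5 had. This complex holds integrin-linked kinase (Ilk), a PINCH adaptor (Lims1 or Lims2) and an actin-binding parvin (Parva or Parvb). Lims2 moved most. It read 10.41, 10.13 and 10.42 against 9.14, 9.15 and 8.97, 2.35-fold lower (-1.23, SE 0.08, adjusted p = 4.65e-08), and all 11 probe sets were called lower, with differences from -1.77 to -0.44. Gpr17, which overlaps Lims2, was not called (-0.06, adjusted p = 0.663). Lims1 fell by 0.10 (SE 0.03, adjusted p = 0.0343). Its call was kept in 7 of 14 alternatives and lost without any of the Smo shRNA arrays (-0.10 to -0.08), control replicate 1 (-0.08) or control replicate 3 (-0.08).

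Ilk read 12.13, 12.06 and 12.04 against 11.68, 11.85 and 11.77 (1.24-fold lower, -0.31, SE 0.04, adjusted p = 8.16e-05), and 16 of 17 probe sets were called lower. Rrp8, which overlaps Ilk, was called the other way (0.15, adjusted p = 0.0144). The 2 parvin genes moved in opposite directions. Parvb read 11.33, 11.35 and 11.30 against 11.78, 11.78 and 11.96 (1.43-fold higher, 0.51, SE 0.05, adjusted p = 1.73e-06), and all 15 probe sets were called higher. Parva read 13.23, 13.23 and 13.20 against 13.09, 13.06 and 13.05, a smaller fall of 0.16 (SE 0.02, adjusted p = 7.47e-05), with 12 of 17 probe sets called lower. The log ratio of Parvb to Parva changed by 0.67 (SD 0.01 and 0.12, n = 3 each), and that of Lims2 to Lims1 by -1.13 (SD 0.14 and 0.12). The exact permutation p was 0.1 for each. Rsu1, which binds the PINCH adaptors, also fell (-0.20, SE 0.02, adjusted p = 1.74e-05).

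Of the tensins, which link integrins to actin in mature adhesions, the members Tns3 and Tns1 fell together. Tns3 read 11.45, 11.44 and 11.47 against 10.94, 11.00 and 11.05 (1.37-fold lower, -0.46, SE 0.04, adjusted p = 1.03e-06), and Tns1 read 11.05, 11.04 and 11.03 against 10.64, 10.55 and 10.65 (1.34-fold lower, -0.42, SE 0.04, adjusted p = 4.11e-06). In each gene most probe sets were called lower, 42 of 48 for Tns3 and 25 of 30 for Tns1. Their log ratio changed by -0.04 (exact permutation p = 0.5). Of the other tensin genes, which are not among the 44, Tns2 (0.03, adjusted p = 0.633) and Tns4 (0.04, adjusted p = 0.764) were not called.

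Vcl, which encodes vinculin, the actin-binding partner of talin, fell by 0.20 (SE 0.03, adjusted p = 1.92e-04), from 12.04, 12.03 and 12.01 to 11.85, 11.81 and 11.84. The groups were separate, and 19 of 26 probe sets were called lower. Ap3m1, which overlaps Vcl, was called higher (0.13, adjusted p = 0.00806). Zyx, for the actin regulator zyxin, differed by 0.01 (SE 0.04, adjusted p = 0.897). The members for focal adhesion kinase and its adaptors were not called either. Ptk2, for focal adhesion kinase, read 10.98, 10.94 and 10.99 against 11.05, 11.07 and 11.05 (0.09, SE 0.04, adjusted p = 0.112), and its adaptors Pxn and Bcar1 each differed by -0.09 (SE 0.04, adjusted p = 0.14 and 0.114). Pxn and Bcar1 did pass, as lower, when arrays were centred on their medians or quantile normalized.

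Calls were more frequent among brighter members. Of 24 members with a mean level of 8.22 or more, 15 were called (62.5%), beside 52.3% of all genes that bright. Of 20 dimmer members 5 were called (25%), beside 10.3% of dimmer genes. The dimmer members include 9 of the 10 leukocyte and platelet chains.

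Genes linked to these members were read from 3 lists. Of 45 tested ligand and matrix genes, 17 fell, 10 rose and 18 were not called, with a median difference of -0.03. The lower genes are 37.8% of the list and the higher ones 22.2%, beside 17.4% and 21.2% of all genes. Postn, which codes for periostin (-2.97, SE 0.04, adjusted p = 3.95e-14), Fbln5, for the elastic fibre protein fibulin 5 (-1.58, SE 0.06, adjusted p = 4.46e-10), and the basement membrane gene Nid2 (-1.18, SE 0.05, adjusted p = 1.72e-09) fell most. Lama5 (1.26, SE 0.05, adjusted p = 4.63e-10) and Lamb1 (0.74, SE 0.06, adjusted p = 5.13e-07), both laminin chains, and the matricellular gene Ccn2 (0.62, SE 0.02, adjusted p = 2.46e-10) rose most. Fn1, for fibronectin, was not called (0.05, adjusted p = 0.0999).

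Ligands of the moved receptor groups were split after their values were seen. Of 9 laminin chain genes tested, Lama5, Lamb1 and Lamc1 (0.49) rose, Lamb2 (-0.54) and Lama4 (-0.51) fell and 4 were not called. That is 33.3% higher and 22.2% lower, beside 21.2% and 17.4% of all genes. The 9 collagen chain genes of the list, a subset chosen after the values were seen, were all called, beside 38.6% of all genes. All 9 were among the brighter genes, split as for the members above, and 52.3% of brighter genes were called. By direction 6 were lower (66.7%) and 3 higher (33.3%), beside 22.7% lower and 29.5% higher of brighter genes. Col1a2 fell most (-0.46, SE 0.04, adjusted p = 2.99e-07), while the basement membrane collagens Col4a1 (0.28) and Col4a2 (0.19) rose.

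Of 64 other adhesion complex genes tested, 22 fell (34.4%, beside 17.4% of all genes) and 16 rose (25%, beside 21.2%), with a median difference of -0.03. Leaving out control replicate 1, or else the second Smo shRNA array, gave 10 that rose. Sorbs2 (-2.34, SE 0.05, adjusted p = 3.27e-12), Nexn, for nexilin (-1.03, SE 0.13, adjusted p = 1.88e-05), and Palld, for palladin (-0.87, SE 0.05, adjusted p = 1.11e-08), all known to bind actin or its partners, fell most. Cav1, for the membrane protein caveolin (0.81, SE 0.05, adjusted p = 3.56e-08), and the LIM domain genes Trip6 (0.38) and Pdlim1 (0.37) rose most.

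Of 39 actin contraction genes tested, 15 fell (38.5%, beside 17.4% of all genes) and 8 rose (20.5%, beside 21.2%), with a median difference of -0.04. In 4 alternatives 5 rose, namely with arrays centred on their medians and when control replicate 3 or the second or the third Smo shRNA array was left out. The myosin light chain gene Myl9 (-1.88, SE 0.06, adjusted p = 4.27e-11), the actin gene Actg2 (-1.37, SE 0.05, adjusted p = 2.88e-10) and Cnn1, for calponin (-1.14, SE 0.09, adjusted p = 4.65e-07), fell most. The GTPase gene Rhob (0.42, SE 0.05), the formin gene Diaph1 (0.37, SE 0.05) and Cfl2, for a cofilin (0.27, SE 0.03), rose most, with adjusted p = 7.08e-06, 8.16e-05 and 1.76e-05.

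**Figure D4:**
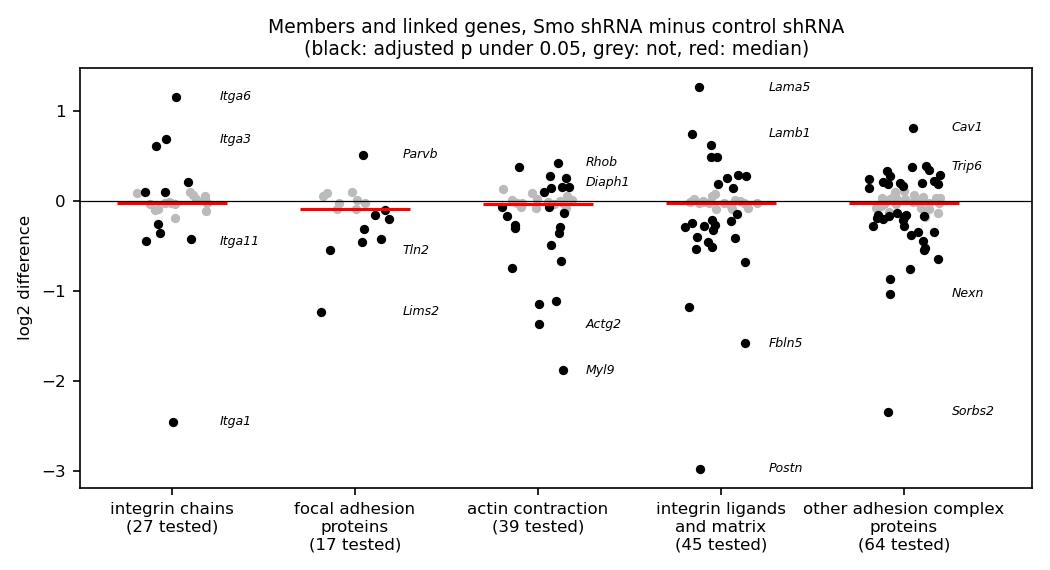
Log2 differences (y axis) of the 44 members, split into integrin chains and focal adhesion proteins, and of the 3 linked lists, 1 point for each gene, black where the adjusted p was below 0.05 and grey otherwise, with a red line at each median. The medians are -0.03 for the integrin chains, -0.09 for the focal adhesion proteins and -0.04 to -0.03 for the lists, and single genes such as Postn (-2.97), Itga1 (-2.45), Sorbs2 (-2.34) and Lama5 (1.26) lie far from them.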

How the data were processed

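The deposited table holds 1256831 exon probe sets on 6 arrays as log2 values made by the authors. The log2 scale was read from the values (0 to 15.14). Array medians lie at 6.56 to 6.59, so the deposited values look normalized between arrays; the method is not given in sources used here. Gene names came from the platform annotation, with 318760 probe sets naming 1 gene. Older symbols were updated through RefSeq (GRCm38.p6) unless that would merge 2 genes.

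Of the probe sets naming 1 gene, 245574 had a mean over the 6 arrays that reached the overall median and were used. Genes with at least 3 were joined by Tukey median polish. Levels and summed levels of cell type markers were joined without that cut, but their calls and differences were not. Testing was done in limma 3.58.1, under R 4.3.3 (lmFit, eBayes with a variance trend, two-sided, Benjamini-Hochberg over all 16923 genes), and the same was done for each probe set. SE is the moderated standard error. Log2 differences understate the change of dim genes, and the number of arrays limits precision. Across genes, which are not independent replicates, r was 0.996 to 0.998 within a line and 0.979 to 0.981 between lines. At most 0.0237% of values were identical in any pair of arrays. The fit was tested on simulated data.

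Named in full were members called with a log2 difference of 0.32 or more. Other members were described by role, and of each linked list the 3 largest called differences in each direction were named. The members and lists were chosen with earlier results of these data known. Other genes named (Pelo, Gpr17, Rrp8, Ap3m1, Npnt, Rsu1, Tns2, Tns4, Ptk2b, Crk, Csk, Fn1 and the laminin and collagen chains) were chosen after their values were seen. Some genes of the linked lists are not reported here.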

Additional observations from a re-analysis of the deposited data

How the results depend on the processing

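Over 14 alternatives (brightness cut, summary, minimum of 5 probe sets, scaling, variance trend, replicate block and each array left out), 12 of the 20 member calls were kept in every one: Ilk, Itga1, Itga11, Itga3, Itgb3, Lims2, Parva, Parvb, Tln2, Tns1, Tns3 and Vcl. The other 8 lost their call under at least 1, and none of the 20 changed direction. Among the 24 members not called, 11 changed sign under some alternative, and Bcar1, Itgb8 and Pxn passed under some. With arrays centred on their medians, 4 members and 3 integrin chains were higher. Leaving out 1 array gave 4 to 5 members higher, 3 to 4 integrin chains higher and 2 to 5 integrin chains lower, with 2 lower without control replicate 1 and 3 without control replicate 3. With the replicate block, 14 members were lower and 7 higher. Equal replicate numbers shared no known origin, and their deviations correlated at 0.08, 0.10 and 0.39, so the block was not used. Genes near the brightness cut have the least certain folds.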
